A study of Mus musculus with 16 samples.

Results

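Messenger RNA of untreated preadipocytes was compared between day 0 and day 6 of their conversion into fat cells. The libraries were chosen by their labels alone: the 4 untreated libraries at day 0 and the 4 untreated libraries at day 6, which are 8 of the 16 libraries of the study. The cells came from an immortalized line of preadipocytes, the precursors of fat cells, of wild-type C57Bl6/J mice. Untreated means that no interleukin was given before differentiation. The remaining 8 libraries came from cells that had been given interleukin-13 (IL-13), a cytokine of type 2 immunity, for 16 h beforehand, again 4 at day 0 and 4 at day 6. They shared the estimate of spread and are described only in a closing comparison. The labels name neither the fat depot, the way the line was immortalized nor the differentiation medium, and 1 line stands for the cell type. They do not say either whether the 4 libraries of a group were separate cultures, so each p-value speaks only to the spread among the libraries, part or all of which may be technical.

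Preadipocytes resemble fibroblasts: they spread on actin fibres and surround themselves with collagen and fibronectin. Once differentiation is induced, C/EBP factors switch on Pparg and Cebpa, which hold each other active and turn on the genes for taking up, building, storing and releasing fat. Mature fat cells also secrete hormones such as adiponectin, respond to insulin, and in their brown or beige form burn fuel for heat through the uncoupling protein Ucp1.

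Depth was even, from 15253031 to 17816152 counts per untreated library, and 15674 to 16201 genes had at least 1 count. Of 41325 genes in the tables, 13157 had enough counts to be tested with edgeR's quasi-likelihood test, and a gene was called at a Benjamini-Hochberg adjusted p under 0.05. Levels are given in CPM, counts relative to library size, with sizes scaled by the trimmed mean of M values (TMM), as mean ± SD of n = 4 libraries. Fold changes are log2 of day 6 over day 0 with their standard error (SE), taken from edgeR's test statistic. For genes with few counts on 1 day this SE understates the error, and some SEs from DESeq2, another count test, are given beside it. The days were deposited as separate tables, so day and anything done to the libraries of 1 day together cannot be told apart. In RNA from whole cultures, fewer cells of a type and less RNA per cell cannot be told apart either.

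Most of the transcriptome moved. By edgeR, 5465 genes rose, which is 41.5% of the genes tested, and 5125 fell, which is 39.0%. With a change of at least 2-fold asked for as well, 2746 genes rose (20.9%) and 2342 fell (17.8%), and 541 rose and 296 fell at least 16-fold. In 9927 genes, 75.5% of those tested, the libraries of the 2 days did not overlap. The median log2 fold change of all tested genes was 0.04, so the counts below are set against a background with nearly as many falls as rises. Scaling by total counts lowered that median by 0.10 on the log2 scale and turned the balance, with 4929 higher and 5651 lower, and 2519 and 2557 at 2-fold. A gene list of any kind would hold many called genes here, and only shares well away from these percentages set a list apart in description.

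**Figure D1:**
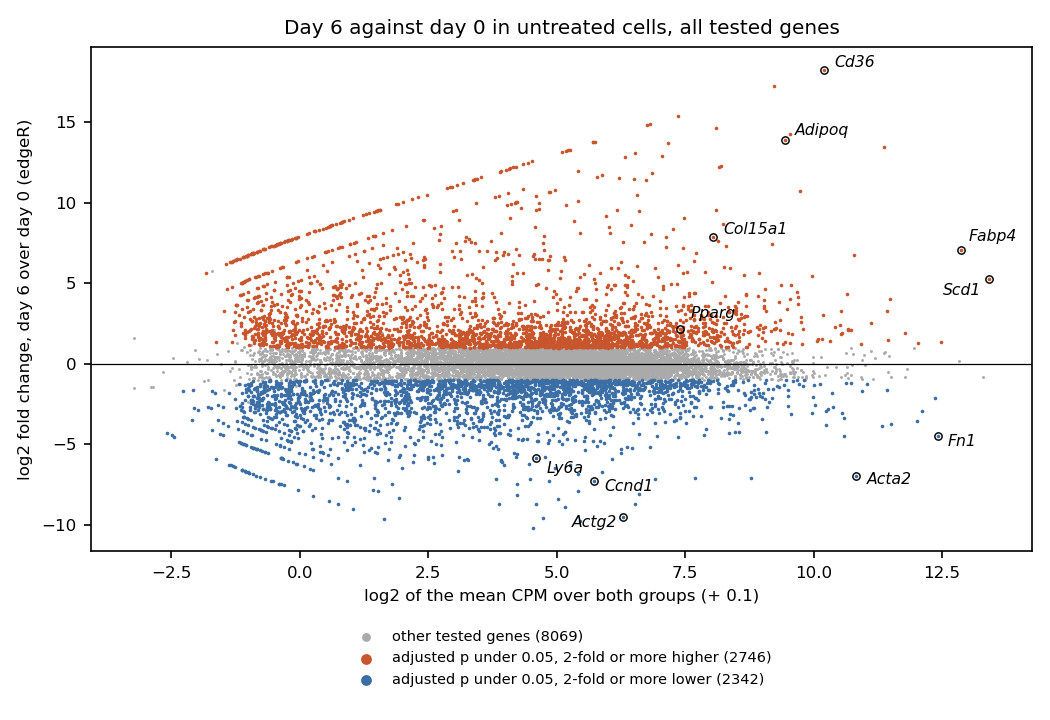
Each point is 1 of the 13157 tested genes, with the log2 of its mean CPM over both days on the horizontal axis and edgeR's log2 fold change, day 6 over day 0, on the vertical axis. Orange and blue mark the 2746 genes called and at least 2-fold higher and the 2342 called and at least 2-fold lower, and the diagonal streaks at the left are genes without counts on 1 day, whose fitted fold depends on the prior count.

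The core regulators of fat cell formation were present before differentiation and rose with it. Pparg (ENSMUSG00000000440, chromosome 6, 115360951 to 115490399), the nuclear receptor required for fat cells to form, was at 62.1, 62.5, 65.4 and 61.2 CPM in the day 0 libraries and at 261, 261, 276 and 299.8 CPM in the day 6 libraries. The groups were far apart and the rise was 4.37-fold (log2 2.13, SE 0.06, edgeR adjusted p = 6.93e-18). Cebpa (ENSMUSG00000034957, chromosome 7, 35119293 to 35121928), its partner in holding the fat cell state, went from 21.9, 23.3, 24.8 and 23.4 CPM to 249.5, 234, 268 and 279 CPM. No day 0 library came near any day 6 library, and the log2 fold change was 3.47, SE 0.07. The early C/EBP factors were scarcer. Cebpb went from 3.83 ± 0.291 to 14.3 ± 2.19 CPM (log2 1.90, SE 0.15) and Cebpd from 0.519 ± 0.230 to 1.13 ± 0.277 CPM (log2 1.10, SE 0.35, edgeR adjusted p = 0.00667). Both act in the first hours and days of the programme, which was not sampled between day 0 and day 6.

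Pparg has 3 start windows in the RefSeq promoter table of build GRCm38.p6, each covering 250 bases before a start and 50 after. The window printed here, chr6:115421816-115422115 on the + strand, is the most downstream of them, lies inside the gene, and is shown because it alone holds the C/EBP half-matched motif TTGCNNAA (searched on both strands), marked in capitals. Its matches begin 215 and 16 bases before the start.
Pparg: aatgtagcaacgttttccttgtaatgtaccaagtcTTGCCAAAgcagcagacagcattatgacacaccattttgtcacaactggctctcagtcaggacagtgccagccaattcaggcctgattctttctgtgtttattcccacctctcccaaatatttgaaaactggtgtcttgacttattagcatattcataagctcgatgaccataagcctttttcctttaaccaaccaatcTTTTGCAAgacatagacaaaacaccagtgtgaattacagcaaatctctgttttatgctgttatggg
The letters TTGCNNAA were in 10.8% of all 32851 promoters of the table, in 8.49% of those of tested genes, in 11.3% of those of genes called and at least 4-fold higher and in 7.97% of those at least 4-fold lower. The full palindrome TTGCGCAA, which also counts as a match to the looser form, was in 0.183%, 0.293%, 0.413% and 0.188%. The nuclear receptor half-site AGGTCA was in 16.3%, 12.5%, 16.7% and 13.0%, in the same order. Among the tested adipogenic factors with a promoter in the table, 3 of 26 genes, with 3 of their 44 promoters, held the looser C/EBP form, namely Pparg, Rxrg and Zfp423. A match describes the letters in this window only, and counts per gene do not separate transcripts from different starts.

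Of the 32 transcription factors listed for fat cell formation, all were tested, 20 rose at least 2-fold and 2 fell as far, with a median log2 fold change of 1.35. The factors that govern fat synthesis stood out by level. Srebf1, which turns on lipid synthesis genes, went from 66.9 ± 8.36 to 649 ± 42.2 CPM (log2 3.28, SE 0.10). Mlxipl, the carbohydrate-sensing factor ChREBP, had no count in any day 0 library and 138, 105, 84.5 and 102 CPM at day 6, at least 2568-fold higher when day 0 is set to 3 counts over its 4 libraries. That same bound is used below for every gene without a count. The retinoid receptor Rxrg (log2 6.91), the oxysterol receptor Nr1h3 (log2 4.68), Klf5 (log2 3.17) and Klf15 (log2 1.88) rose too, while Rxra, the usual partner of Pparg, was not called (log2 -0.05, SE 0.09, edgeR adjusted p = 0.602).

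The 2 that fell were Klf4 and Hmga2. Klf4, an early activator of Cebpb, was at 30.1, 30.4, 32.6 and 29.1 CPM at day 0 and 4.06, 4.40, 5.15 and 4.87 CPM at day 6 (log2 -2.72, SE 0.11). Hmga2, a chromatin protein of growing precursor cells, fell from 129 ± 7.40 to 8.57 ± 1.10 CPM (log2 -3.91, SE 0.08). Among 24 tested repressors of fat cell formation the balance lay the other way, with 10 falling at least 2-fold, 3 rising and a median of -0.87. Gata2, which blocks Pparg, fell from 27.3 ± 3.07 to 1.82 ± 0.337 CPM (log2 -3.89, SE 0.14), and Zfp521 (log2 -2.83), Foxc2 (log2 -3.82), Sox9 (log2 -2.75) and Snai2 (log2 -1.92) fell as well. The 3 that rose were Irf4 (log2 6.99), a factor that also drives lipolysis genes in mature fat, Foxo1 (log2 1.98) and Trib3 (log2 1.37).

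**Figure D2:**
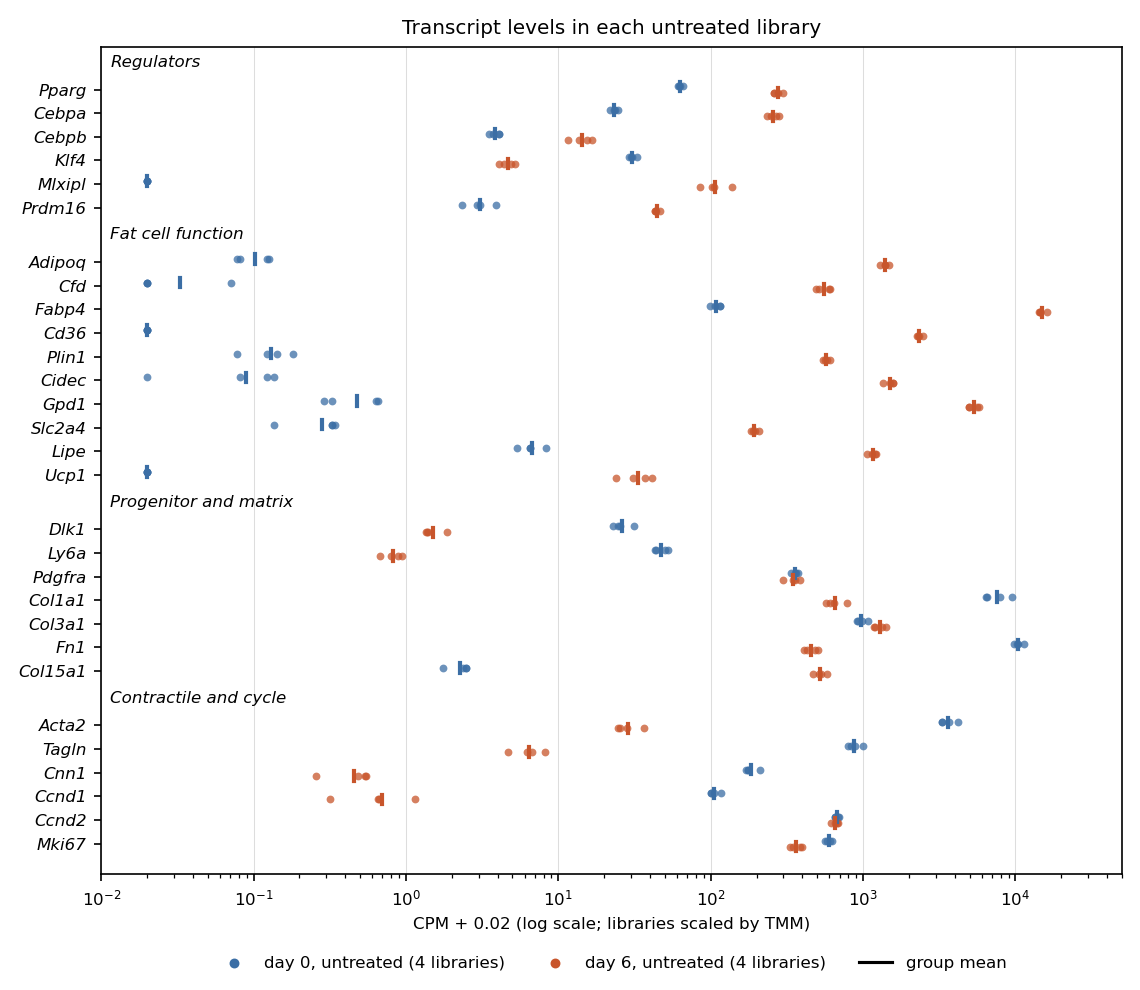
Points are the CPM of each untreated library plus 0.02 on a log axis, blue for day 0 and orange for day 6, with a bar at the mean of each group of 4. Fat cell genes such as Cd36, Plin1 and Cidec sit at or near the left edge at day 0, Acta2 and Ccnd1 move the opposite way, and the 2 groups overlap for Pdgfra.

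Adiponectin, adipsin and resistin, secreted by fat cells, went from a few counts at day 0 to high levels. Adipoq (ENSMUSG00000022878, chromosome 16, 23146536 to 23158028), which encodes adiponectin, was at 0.102, 0.0616, 0.0576 and 0.107 CPM at day 0 and at 1401, 1295, 1392 and 1478 CPM at day 6, a log2 fold change of 13.90, SE 0.15 (edgeR adjusted p = 9.29e-24). The day 0 values rest on 6 counts in all 4 libraries together, against 90119 at day 6. Cfd, the complement protease adipsin, had 1 count at day 0 and 35710 at day 6, a ratio of 39592 (95% counting interval 7106 to 1563850.0). Retn, which encodes resistin, had 1 count at day 0 and stood at 302, 265, 278 and 301 CPM at day 6, a ratio of 20559 (95% counting interval 3689 to 812078). Counting intervals and bounds cover counting error only, since reads copied in amplification are not independent molecules.

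Across the 21 tested members of the secreted list, 19 rose at least 2-fold, with a median of 6.44. The lipoprotein genes Apoe (log2 6.44) and Apoc1 were among the risers, as were Rbp4 (log2 11.49), the retinol carrier, complement C3 (log2 10.74), Angptl4 (log2 4.40), an inhibitor of lipoprotein lipase, and Vegfa, the angiogenic factor (from 31.6 ± 6.20 to 246 ± 31.3 CPM). Metrnl, another secreted protein of the list, fell (log2 -1.26). Lep was the exception among the classic hormones. Leptin transcripts had no count at day 0 and only 22 counts over the 4 day 6 libraries, 0.322, 0.594, 0.330 and 0.116 CPM, too few for the test. Measured per length, the authors' median TPM at day 6 was 0.311 for Lep and 3242 for Adipoq.

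Lep's promoter is shown because, for all its low level, it is the only one of the panel's windows printed here with the full C/EBP palindrome, in capitals, beginning 55 bases before the start (chr6:29059971-29060270, + strand, GRCm38.p6).
Lep: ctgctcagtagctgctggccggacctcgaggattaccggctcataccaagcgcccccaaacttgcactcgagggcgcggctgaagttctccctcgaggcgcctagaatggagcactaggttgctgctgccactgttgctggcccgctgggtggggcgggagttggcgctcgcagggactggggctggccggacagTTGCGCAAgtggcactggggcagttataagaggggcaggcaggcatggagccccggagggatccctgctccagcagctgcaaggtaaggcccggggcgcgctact
The letters say nothing of whether a factor was bound there in these cells.

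Most genes for taking up and carrying fatty acids rose, 12 of 19 tested by edgeR against 6 that fell. Cd36 (ENSMUSG00000002944, chromosome 5, 17781690 to 17888801), the fatty acid translocase of the cell surface, had no count in any day 0 library and stood at 2272, 2463, 2299 and 2339 CPM at day 6. That is at least 56138-fold higher. Fabp4 (ENSMUSG00000062515, chromosome 3, 10204088 to 10208576), the fatty acid binding protein of fat cells, was at 115, 116, 106 and 98.3 CPM at day 0 and at 14220.5, 14512, 14477 and 16058 CPM at day 6, a rise of 136-fold (log2 7.09, SE 0.09, edgeR adjusted p = 6.17e-23). It was thus expressed before differentiation, which Cd36 was not at this depth. Lpl, the lipase that frees fatty acids from lipoproteins, went from 330.2 ± 12.2 to 5372 ± 98.7 CPM (log2 4.02, SE 0.07), Acsl1, which activates them, rose by log2 6.76, and the receptor Ffar4 had no count at day 0 and 43.2 ± 4.94 CPM at day 6. At least 2-fold, 10 members of the uptake list rose and 3 fell (median 2.14). The 3 were Fabp3, the binding protein of heart and muscle (log2 -3.04), the transporter Slc27a3 (log2 -1.10) and the lipoprotein receptor Lrp1 (log2 -1.82).

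Transcripts for fat synthesis were raised at nearly every step. Scd1 (ENSMUSG00000037071, chromosome 19, 44394451 to 44407709), the desaturase that makes monounsaturated fatty acids, was at 513, 566, 599.8 and 509 CPM at day 0 and at 20538, 20672, 21965 and 22157 CPM at day 6 (log2 5.29, SE 0.08, edgeR adjusted p = 8.03e-22). Its median TPM of 14079 at day 6 was the highest of any nuclear gene, against 415 at day 0. Gpd1 (ENSMUSG00000023019, chromosome 15, 99717515 to 99725005) supplies the glycerol backbone of triglycerides and was at 0.615, 0.308, 0.633 and 0.268 CPM and then at 5798, 4971, 5579 and 4943 CPM (log2 13.48, SE 0.19). Its day 0 level rests on 33 counts in all, and the SE by DESeq2 was 0.27. Fasn, the fatty acid synthase, went from 524 ± 71.2 to 4974 ± 557 CPM (log2 3.25, SE 0.13), and Dgat2, which closes triglyceride synthesis, from 4.97 ± 0.347 to 173 ± 15.6 CPM (log2 5.12, SE 0.10).

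In the synthesis list 25 of 32 tested members rose at least 2-fold (median 3.01). Me1, which makes NADPH for synthesis and shares 22.9% of its 50-base stretches with other annotated genes, rose by log2 4.34, the acyltransferase Agpat2 by 5.52 and the elongase Elovl3, typical of brown and cold-exposed fat, by 12.26. Pck1, which feeds glycerol synthesis, had no count at day 0 and 75.6, 74.0, 81.5 and 72.9 CPM at day 6, at least 1816-fold higher. Only 3 members fell that far, namely the elongases Elovl6 (log2 -1.44) and Elovl1 (log2 -1.02) and the acyltransferase Mogat2 (log2 -3.28). The desaturases Fads1 and Fads2, which make polyunsaturated fatty acids, fell slightly, by 0.41 and 0.25 on the log2 scale.

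Lipid droplet coat and assembly genes were mostly higher. Plin1 (ENSMUSG00000030546, chromosome 7, 79720218 to 79732903), the perilipin that guards the droplet surface of fat cells, was at 0.102, 0.123, 0.0576 and 0.161 CPM at day 0, from 8 counts in all, and at 579, 547, 608 and 562 CPM at day 6 (log2 12.24, SE 0.14, edgeR adjusted p = 1.48e-23). Cidec, which fuses droplets, was at 0.102, 0.0616, 0.115 and 0 CPM and then 1497, 1347, 1564 and 1559.5 CPM (log2 14.24, SE 0.19). By DESeq2 the SE was larger, 0.52 for Plin1 and 0.65 for Cidec. Plin5, a perilipin of tissues that burn fat, had 3 counts at day 0 and 3236 at day 6, a ratio of 1196 (95% counting interval 409 to 5802). Hsd17b13, a droplet-bound dehydrogenase, rose from no count to 10.9 ± 1.28 CPM, and Clstn3 rose too (log2 10.48). Plin2, found on droplets of most cells, rose from an already measurable level (from 124 ± 6.44 to 1297 ± 86.2 CPM, log2 3.38, SE 0.06), Plin4 rose by less than 2-fold (log2 0.93, SE 0.06), and Plin3 fell slightly (log2 -0.22, SE 0.07). In all, 16 of 22 tested members rose at least 2-fold, and Plin3 was the only one called lower by edgeR (median 2.68).

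The looser C/EBP form TTGCNNAA was in 4 of 27 promoters of the 19 droplet genes in the table, those of Cav2, Cidec, Hsd17b11 and Plin1. The windows of Plin1 (chr7:79732727-79733026, - strand, 1 window in the table) and of the more downstream Cidec start (chr6:113434715-113435014, - strand) are shown because these are the 2 of the 4 that had almost no counts at day 0. Capitals mark the motif, which begins 187 and 58 bases before the Plin1 start and 198 bases before the Cidec start.
Plin1: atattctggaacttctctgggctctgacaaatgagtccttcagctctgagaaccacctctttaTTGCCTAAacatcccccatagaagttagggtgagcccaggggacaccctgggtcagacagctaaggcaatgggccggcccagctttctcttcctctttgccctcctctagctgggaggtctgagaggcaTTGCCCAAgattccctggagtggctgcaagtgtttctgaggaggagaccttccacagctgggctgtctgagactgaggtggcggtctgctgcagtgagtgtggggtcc
Cidec: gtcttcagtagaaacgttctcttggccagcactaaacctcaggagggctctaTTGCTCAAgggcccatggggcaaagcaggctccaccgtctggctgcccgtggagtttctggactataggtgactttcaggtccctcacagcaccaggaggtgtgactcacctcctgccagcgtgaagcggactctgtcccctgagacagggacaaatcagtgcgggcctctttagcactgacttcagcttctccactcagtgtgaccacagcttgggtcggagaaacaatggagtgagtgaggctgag
The more upstream Cidec window of the table holds no such match.

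Transcripts for lipolysis, the release of stored fat, rose along with those for storage, while release itself was not measured. Pnpla2, the lipase ATGL that makes the first cut, was at 17.5, 18.0, 23.8 and 19.3 CPM at day 0 and 974, 845, 992 and 1031 CPM at day 6 (log2 5.61, SE 0.12). Lipe, the hormone-sensitive lipase that makes the next, was at 6.51, 5.36, 8.29 and 6.53 CPM and then 1138, 1061, 1194 and 1220.2 CPM (log2 7.43, SE 0.12). Mgll, which finishes the job, went from 0.729 ± 0.199 to 549 ± 29.8 CPM (log2 9.55, SE 0.11). The groups of libraries were clearly apart for all of these. The inhibitors rose too: G0s2, which blocks ATGL, by log2 7.30, the cAMP phosphodiesterase Pde3b by 7.17, and Hcar2, a receptor that restrains lipolysis, from no count to 36.6 ± 6.65 CPM. So did adrenergic receptors that stimulate it. Adrb3, the form typical of fat, had 2 counts at day 0 and 1102 at day 6, a ratio of 611 (95% counting interval 169 to 5051), next to Adrb1 (log2 4.49). Adora1, a receptor that lowers cAMP, had 3 counts at day 0 and 9578 at day 6, a ratio of 3539.8 (95% counting interval 1211 to 17168). Of 20 tested members of the list 15 rose at least 2-fold (median 4.47). The 3 called lower fell by less than 2-fold, namely Gnas (log2 -0.91), Adcy3 (log2 -0.50) and Npr3 (log2 -0.28), genes of cAMP and natriuretic peptide signalling.

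Transcripts for mitochondrial fuel use rose for nearly all of the genes listed. All 49 tested nuclear-encoded subunits of the respiratory chain rose by edgeR, 47 of them at least 2-fold, with a median of 1.91. Cytochrome c, Cycs, changed most (40.1, 40.7, 40.5 and 31.9 CPM at day 0 and 751, 782, 802 and 784 CPM at day 6, log2 4.35, SE 0.10), though 25.9% of its 50-base stretches also occur in other annotated genes, so its counts are less certain. Atp5b, the catalytic subunit of ATP synthase, went from 1472 ± 120.1 to 5539 ± 298 CPM (log2 1.91, SE 0.07), Cox4i1 from 225 ± 18.2 to 985 ± 80.5 CPM and the complex II subunit Sdha from 228 ± 11.97 to 919 ± 21.1 CPM. The 2 that rose by less than 2-fold were Atp5g1 (log2 0.63) and Atp5j (log2 0.75).

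Transcripts made inside mitochondria rose less. Of 13, 12 rose and 5 did so at least 2-fold, with a median of 0.73. The 5 were mt-Nd1 (log2 1.45), mt-Nd2 (log2 1.84), mt-Nd3 (log2 1.42), mt-Nd6 (log2 1.09) and mt-Atp8 (log2 1.60), and mt-Co1 was not called (log2 0.15, SE 0.09). Nuclear copies of mitochondrial DNA share most of the sequence of some, up to 100% of the 50-base stretches of mt-Co2. As a share of the authors' TPM, all mitochondrially encoded genes made up 7.51% to 10.1% in the day 0 libraries and 11.8% to 14.7% in the day 6 libraries, ranges that did not overlap.

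Transcripts for fatty acid oxidation rose in 28 of 29 tested genes, all 28 at least 2-fold, with a median of 2.82. Hadhb, a subunit of the trifunctional protein of the oxidation spiral, went from 89.0 ± 2.79 to 1566 ± 88.8 CPM (log2 4.14, SE 0.07). The single exception was Cpt1a, the liver form of the carnitine gate into mitochondria (log2 -0.35, SE 0.05). Cpt1b, the muscle and brown fat form, rose by log2 7.23, but 81.4% of its exon bases are shared with another annotated gene on the same strand, so part of those counts may belong elsewhere. In the list of the TCA cycle and branched-chain amino acid breakdown 31 of 36 rose at least 2-fold (median 2.23). Pcx, which refills the cycle, rose most (from 45.0 ± 5.06 to 1945 ± 94.4 CPM, log2 5.43, SE 0.10), followed by Idh3a (log2 4.02). The 1 that fell was Bcat1, the cytosolic transaminase (from 149 ± 11.96 to 3.77 ± 0.708 CPM, log2 -5.31, SE 0.11). Its mitochondrial counterpart Bcat2 rose (log2 1.67).

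Genes of insulin signalling and glucose uptake were more often higher than lower, 17 against 8 by edgeR. Slc2a4 (ENSMUSG00000018566, chromosome 11, 69942539 to 69948188), the transporter GLUT4 that insulin moves to the surface, was at 0.307, 0.308, 0.115 and 0.321 CPM at day 0 and 195, 182, 189 and 208 CPM at day 6 (log2 9.47, SE 0.15, edgeR adjusted p = 5.41e-22). By DESeq2 its SE was 0.34. Slc2a1, the general transporter GLUT1, rose by log2 0.90 and Slc2a3 fell (log2 -0.87). Hexokinase 2, Hk2, went from 22.3 ± 0.739 to 207 ± 5.93 CPM while Hk1 fell (log2 -1.22). Akt2, the kinase form that carries the insulin signal in fat, rose (log2 1.34) and Akt1 fell (log2 -1.52). Insr, the insulin receptor, rose (log2 1.93) and the related Igf1r fell (log2 -2.03). Gys2, the liver form of glycogen synthase, had no count at day 0 and 107, 98.7, 108 and 105 CPM at day 6. Of 26 tested members of the insulin list 15 rose and 5 fell at least 2-fold (median 1.28). The 5 that fell were Akt1, Igf1r, Cap1 (log2 -1.04), Enpp1 (log2 -2.03), an inhibitor of the insulin receptor, and Grb14 (log2 -1.55), another.

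Glycolysis and the pentose phosphate pathway were raised as well, with 19 of 24 tested members at least 2-fold higher and a median of 1.55. The highest fold was that of Pfkfb3, which makes the activator of phosphofructokinase (from 9.45 ± 0.958 to 291 ± 18.8 CPM, log2 4.94, SE 0.09). Eno3, the muscle enolase, fell (log2 -2.48), the other fall being Hk1. Peroxisome and antioxidant genes gave 22 of 29 at least 2-fold higher (median 1.94). Catalase, Cat, went from 99.5 ± 0.732 to 649 ± 11.5 CPM, and Gpx1, a glutathione peroxidase, was the 1 that fell as far (log2 -1.90). Genes of cholesterol synthesis did not follow those of fat synthesis: 3 of 24 rose at least 2-fold, 7 fell, and the median was -0.41. The 3 were Insig1 (from 175 ± 9.50 to 1041 ± 64.6 CPM), Lss (log2 1.40) and Pmvk (log2 1.53), against falls of Cyp51 (log2 -1.36), Fdft1 (log2 -1.26) and Srebf2 (log2 -1.04), the factor that governs the pathway.

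Genes of brown and beige fat were raised alongside those of white fat. Ucp1 (ENSMUSG00000031710, chromosome 8, 83290352 to 83298452), the uncoupling protein, had no count at day 0 and was at 24.0, 37.3, 41.0 and 30.8 CPM at day 6, at least 796-fold higher. Cidea, a droplet protein typical of brown fat, had none either and then 12.2, 24.3, 22.1 and 23.8 CPM, with replicate 1 of day 6 lowest for both. Prdm16, a factor that commits precursors to the brown or beige kind, was at 2.92, 3.02, 3.86 and 2.30 CPM and then 46.2, 43.3, 43.5 and 43.3 CPM (log2 3.87, SE 0.11). Ppargc1a, the coactivator of mitochondrial biogenesis, stayed scarce, with no count at day 0 and then 1.74, 1.19, 1.25 and 1.16 CPM. Per length, the median TPM of Ucp1 at day 6 was 66.2, against 10396 for Fabp4. Cox8b (log2 9.06), Cox7a1 (log2 6.02) and Ppara (log2 6.61) rose. The list held 33 genes, of which 23 were tested and 6 had no count at day 0. Members without day 0 counts, such as Ucp1, could be tested only through their counts in other libraries, so only a rise was possible. Of the 23 tested members, 19 rose at least 2-fold (median 4.66). The 3 that fell were Tmem26 (log2 -1.39), Ckb (log2 -1.01) and Slc6a8 (log2 -1.84), the latter pair belonging to creatine metabolism. Dio2, which activates thyroid hormone, had 1 count at day 6, and Zic1, a marker of classical brown fat, had 1 count at day 0 and 0 at day 6. The marker list of white fat and homeobox genes had 4 of 11 at least 2-fold higher, Retn, Rb1 (log2 2.81), Agt (log2 2.49) and Nrip1 (log2 1.77), and Hoxc9 was the 1 that fell as far (log2 -1.34).

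**Figure D3:**
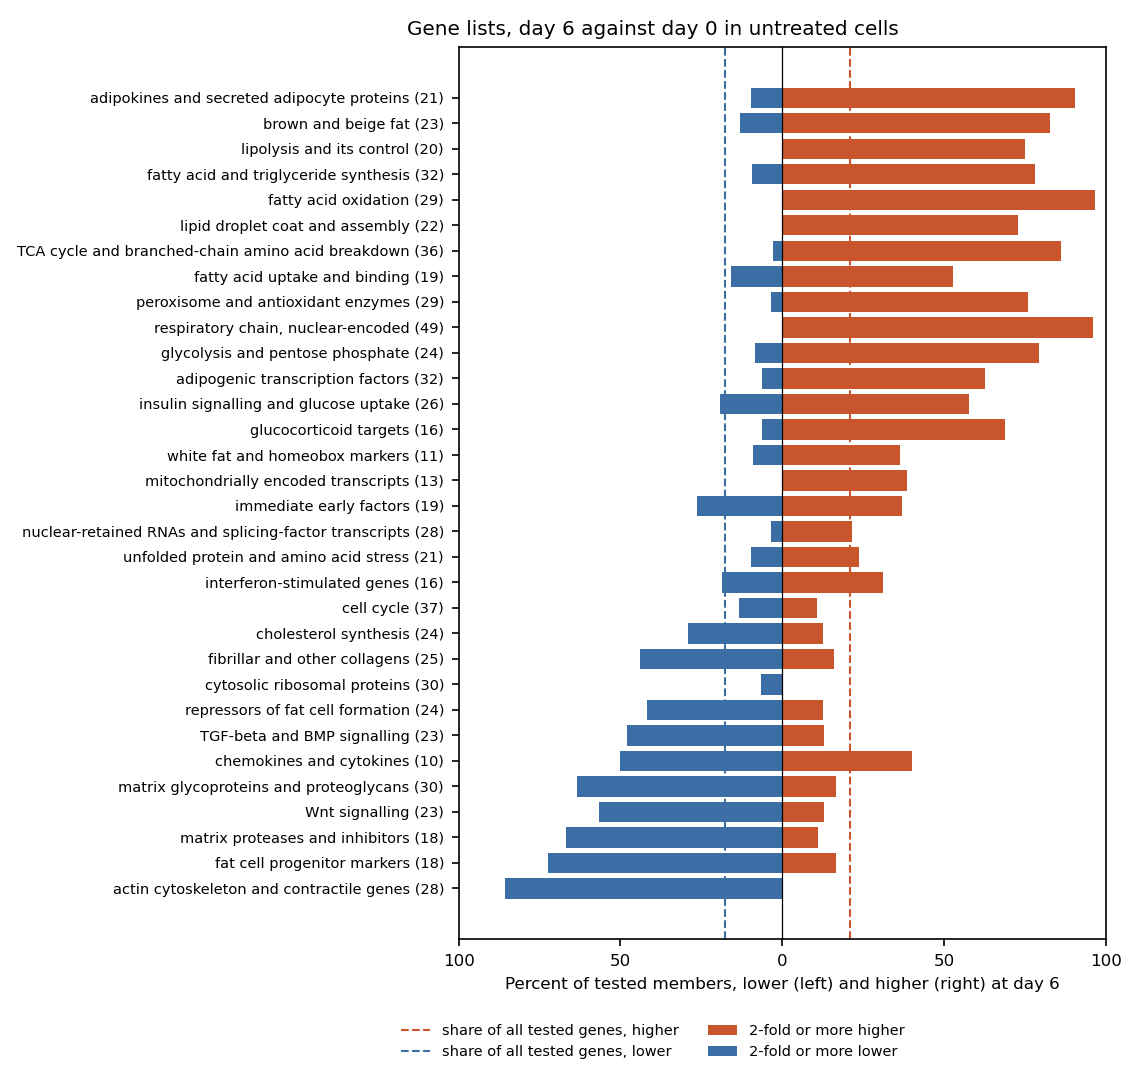
Bars give, for each gene list, the percent of its tested members (their number in brackets) called and at least 2-fold higher at day 6 to the right and at least 2-fold lower to the left, ordered by the median log2 fold change. Dashed lines mark the same shares over all tested genes, 20.9% and 17.8%; oxidation, respiratory chain and hormone lists reach far beyond the right line, and contractile and progenitor lists beyond the left one.

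Markers of the precursor state were lost, but not all of them. Dlk1 (ENSMUSG00000040856, chromosome 12, 109452823 to 109463336), the surface protein Pref-1 that holds preadipocytes back, was at 22.7, 24.7, 31.1 and 25.3 CPM at day 0 and 1.35, 1.84, 1.39 and 1.33 CPM at day 6 (log2 -4.12, SE 0.16, edgeR adjusted p = 9.84e-16). Ly6a, the stem cell antigen Sca-1, went from 43.0, 50.02, 52.3 and 43.7 CPM to 0.773, 0.654, 0.924 and 0.870 CPM (log2 -5.86, SE 0.14). Thy1 (log2 -4.49), Cd24a (log2 -5.34), Anxa3 (log2 -4.92) and Pdgfrb (log2 -2.65) fell as well. Pdgfra, a receptor much used to mark fat cell progenitors, was at 363, 377, 337 and 358 CPM at day 0 and 348, 385, 357 and 299 CPM at day 6. The libraries overlapped and the log2 fold change was -0.05, SE 0.08 (edgeR adjusted p = 0.62). Cd34 was not called either (log2 0.47, SE 0.28). Of 18 tested progenitor markers 13 fell at least 2-fold and 3 rose (median -2.30), the 3 being Nt5e, the ectonucleotidase CD73 (log2 4.88), Sema3c (log2 2.01) and Ackr3 (log2 1.41).

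Transcripts for the extracellular matrix changed in kind as well as in amount. Fn1 (ENSMUSG00000026193, chromosome 1, 71585520 to 71653200), which encodes fibronectin, was at 10154, 10405, 11403 and 9784 CPM at day 0 and 412, 481, 507 and 427 CPM at day 6, a fall of 22.9-fold (log2 -4.51, SE 0.12, edgeR adjusted p = 1.26e-18). Col1a1, the main chain of fibrous collagen I, was at 6459.9, 6371, 9527 and 7967 CPM and then 609, 641, 789 and 573 CPM (log2 -3.54, SE 0.18), and Col1a2 fell with it (log2 -2.96). Col3a1, which joins collagen I in fibres, instead stood at 978, 911, 921 and 1082 CPM and then 1201, 1338, 1420.2 and 1180.0 CPM, a small rise (log2 0.40, SE 0.10, edgeR adjusted p = 0.00129). Collagen VI changed by less than 2-fold, with Col6a1 at log2 0.67, Col6a2 at 0.99 and Col6a3 at -0.36.

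Col15a1, a collagen of the basement membrane zone, went from 2.25 ± 0.354 to 523 ± 46.5 CPM (log2 7.85, SE 0.12), and Lama4, the laminin chain around fat cells, had 1 count at day 0 and 10368 at day 6, a ratio of 11495 (95% counting interval 2063 to 454078). Other basement membrane genes of the lists changed by less: Col4a1 was at log2 -0.21, Col4a2 at -0.53, Lamb1 at 0.58, Lamc1 at -0.42, Nid1 at -0.36 and Hspg2, perlecan, at -1.07. Of 25 collagens and their enzymes 11 fell at least 2-fold and 4 rose (Col15a1, Col5a3 at log2 4.36, Col18a1 at 1.95 and Plod2 at 1.96), with a median of -0.53. Of 30 matrix glycoproteins and proteoglycans 19 fell and 5 rose (median -1.67). Tenascin C, Tnc, went from 412 ± 12.2 to 3.05 ± 0.540 CPM, biglycan, Bgn, from 5398 ± 584 to 400.5 ± 26.8 CPM, and Mgp, the matrix Gla protein, from 84.4 ± 4.70 to 0.345 ± 0.136 CPM. The 5 that rose were Lama4, Lama2 (log2 1.28) and the small leucine-rich proteoglycans Prelp (log2 7.62), Dcn (log2 5.66) and Lum (log2 5.63), a family to which the falling Bgn and Fmod (log2 -2.46) belong too. Matrix proteases and their inhibitors fell in 12 of 18, inhibitors Timp1 (log2 -4.79), Timp2 (log2 -2.76) and Timp3 (log2 -3.67) included, and rose in Fap (log2 2.65) and Adam12 (log2 1.68).

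The contractile and actin genes fell almost without exception. Acta2 (ENSMUSG00000035783, chromosome 19, 34241090 to 34255336), smooth muscle actin, was at 3312, 3647, 4174 and 3301 CPM at day 0 and 24.5, 28.4, 36.4 and 25.3 CPM at day 6, a fall of 126-fold (log2 -6.98, SE 0.14, edgeR adjusted p = 8.51e-20). Its median TPM at day 0 was the highest of the contractile list, at 7283, and at 48.2 at day 6. Actg2 went from 156 ± 15.8 to 0.199 ± 0.102 CPM (log2 -9.55, SE 0.21), calponin, Cnn1, from 183 ± 18.1 to 0.436 ± 0.135 CPM (log2 -8.70, SE 0.14) and Ctgf, a target of stretch and of the coactivator YAP, from 194 ± 24.9 to 0.683 ± 0.346 CPM (log2 -8.11, SE 0.19). Tagln, transgelin, was at 827, 882, 997 and 791 CPM and then 4.64, 6.65, 8.12 and 6.21 CPM (log2 -7.09, SE 0.14). In Tagln 67.9% of exon bases lie opposite another annotated gene, and whether counting used the strand is not given in the sources used here. Of the 28 genes, 27 fell by edgeR, 24 at least 2-fold, with a median of -3.12. Wwtr1, which encodes TAZ, a relative of YAP, was the 1 that rose (log2 0.63, SE 0.05). Non-muscle actin, Actb, a common reference gene, fell from 3000.1 ± 370.1 to 935 ± 143 CPM (log2 -1.68, SE 0.11), so it was not constant here.

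Serum response factor, Srf, binds the CArG box in many of these genes. That motif, searched by name on both strands and added after the falls had been seen, was in 5 of 22 promoters of the 20 contractile genes in the table, those of Actg1, Cnn2, Myl9, Srf and Vcl. It was in 1.63% of all promoters, in 1.30% of those of tested genes, in 1.32% of those of genes at least 4-fold higher and in 2.35% of those at least 4-fold lower. The windows of Myl9, the myosin light chain of contractile cells (chr2:156775214-156775513, + strand, log2 -4.53, SE 0.14), and of Srf itself (chr17:46556113-46556412, - strand, log2 -0.59, SE 0.13) are shown with the boxes in capitals, which begin 161 bases before the Myl9 start and 82 and 62 before that of Srf.
Myl9: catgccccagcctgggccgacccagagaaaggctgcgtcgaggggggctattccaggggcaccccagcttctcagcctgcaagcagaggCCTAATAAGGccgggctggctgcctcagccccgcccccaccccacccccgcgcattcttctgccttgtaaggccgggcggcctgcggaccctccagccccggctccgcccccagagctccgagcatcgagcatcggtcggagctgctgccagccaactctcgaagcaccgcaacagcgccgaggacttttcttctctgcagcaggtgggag
Srf: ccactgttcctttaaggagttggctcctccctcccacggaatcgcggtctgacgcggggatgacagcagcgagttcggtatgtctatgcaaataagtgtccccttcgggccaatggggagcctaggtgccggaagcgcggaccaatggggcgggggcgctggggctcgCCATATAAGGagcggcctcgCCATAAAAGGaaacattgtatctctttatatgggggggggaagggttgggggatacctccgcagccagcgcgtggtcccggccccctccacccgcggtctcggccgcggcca
Both genes fell, Myl9 by far more than Srf, with boxes in either window. Acta2 and Cnn1, with larger falls than either, had no match in their windows.

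Genes of TGF-beta, BMP and Wnt signalling were more often lower than higher. The lists hold ligands, receptors and antagonists alike. In the list for TGF-beta and BMP signalling 11 of 23 tested members fell at least 2-fold and 3 rose (median -0.90). Inhba, the activin subunit, went from 29.5 ± 2.66 to 0.465 ± 0.245 CPM (log2 -5.97, SE 0.17), Ltbp1, which stores latent TGF-beta, fell (log2 -5.16), and all 3 ligands, Tgfb1 (log2 -1.42), Tgfb2 (log2 -1.83) and Tgfb3 (log2 -2.83), fell. The receptor Bmpr1a was not called (log2 -0.02, SE 0.06). The 3 that rose were Gdf10 (log2 3.84), Ltbp2 (log2 2.48) and the activin antagonist Fst (log2 2.06). In the Wnt list 13 of 23 fell and 3 rose (median -1.91). Wnt10b, the ligand that keeps preadipocytes undifferentiated, was low at day 0 (1.49, 0.370, 0.518 and 1.29 CPM) and had no count at day 6, at least 20.4-fold lower. Sfrp2, a Wnt-binding secreted protein, went from 239 ± 9.34 to 1.69 ± 0.612 CPM, Wisp2 from 57.0 ± 5.26 to 0.349 ± 0.169 CPM and the receptor Fzd2 fell (log2 -2.93). Axin2, a feedback target of Wnt signalling, was 1 of the 3 that rose (log2 4.57), with Dkk2 (log2 4.11) and Fzd4 (log2 1.08).

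Cell cycle genes were more often lower than higher, mostly by less than 2-fold. Mki67, a marker of cycling cells, was at 583, 606, 622 and 563 CPM at day 0 and still at 399, 386, 345 and 331 CPM at day 6 (log2 -0.70, SE 0.07). The groups did not overlap, but the fall was under 2-fold. Ccnd1 (ENSMUSG00000070348, chromosome 7, 144929931 to 144939925), cyclin D1, was almost lost, from 101, 100.05, 116 and 105 CPM to 0.644, 0.297, 1.12 and 0.638 CPM (log2 -7.30, SE 0.17, edgeR adjusted p = 4.51e-19), while Ccnd2 was not called, at 657, 687, 698 and 653 CPM and 674, 685, 651 and 611 CPM (log2 -0.04, SE 0.06, edgeR adjusted p = 0.508). In Ccnd1 23.4% of exon bases lie opposite another annotated gene. That share was 23.2% in Ctgf, 22.0% in Gnas, 21.3% in Timp3, 20.7% in Cebpb, 20.1% in Adora1 and 24.1% in Daglb, so the counts of these genes are less certain too; genes named only as list members were not checked. Of 37 cell cycle genes, 9 rose and 20 fell by edgeR, 4 and 5 of them at least 2-fold (median -0.23). The 4 were Ccne1 (log2 1.58), Ccne2 (log2 2.13) and the inhibitors Cdkn1a (log2 1.43) and Cdkn2c (log2 1.34). The 5 were Ccnd1, Cdc20 (log2 -1.46), Cdc25c (log2 -1.35), Plk1 (log2 -1.13) and Cdkn2b (log2 -1.38). Cytosolic ribosomal protein genes fell by small steps, 29 of 30 by edgeR and 2 at least 2-fold (Rpl10 at log2 -1.38 and Rps2 at -1.17), with a median of -0.62, and many share sequence with processed copies.

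Inflammatory and stress genes moved in no single direction. Cxcl12, a chemokine of stromal cells, was at 4815, 4911, 4656 and 4891 CPM at day 0 and 292, 342, 367 and 305 CPM at day 6 (log2 -3.88, SE 0.08), and it made up most of the summed level of the chemokine list at day 0, which was 5044 to 5264 CPM. Of 10 tested chemokines and cytokines 5 fell, Cxcl12, Ccl7 (log2 -3.92), Csf1 (log2 -2.92), Ccl2 (log2 -2.58) and Cx3cl1 (log2 -2.25), and 4 rose, Ccl11 (log2 3.62), Cxcl1 (log2 2.95), Cxcl16 (log2 2.93) and Cxcl10 (log2 2.83), all at least 2-fold. Il6 and Tnf had 5 and 0 counts over the day 0 libraries and 5 and 1 over those of day 6. Of the 16 tested interferon-stimulated genes, those that rose at least 2-fold included Rsad2 (log2 3.01), Gbp2 (log2 1.93), Gbp3 (log2 1.34) and Bst2 (log2 1.02), and 3 fell as far, Ifit2 (log2 -2.23), Ifit3 (log2 -1.38) and Irf9 (log2 -1.01). The unfolded protein list gave 5 of 21 at least 2-fold higher, Dnajb9 (log2 2.45), Asns (log2 1.49), Trib3, Atf4 (log2 1.13) and Xbp1 (log2 1.02), and 2 lower, Pdia3 (log2 -1.58) and Calr (log2 -1.26).

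Glucocorticoid-responsive genes were mostly higher, 11 of 16 tested at least 2-fold (median 1.18). Zbtb16, a zinc finger factor strongly induced by glucocorticoids, had 2 counts at day 0 and 3105 at day 6, a ratio of 1721 (95% counting interval 476 to 14219.5). Hsd11b1, the enzyme that regenerates active glucocorticoid, went from 1.52 ± 0.327 to 47.7 ± 8.59 CPM (log2 4.97, SE 0.16), and the classic target Fkbp5 rose by little (log2 0.29, SE 0.06). Sgk1 was the 1 that fell as far (log2 -1.19). Whether the medium held a glucocorticoid is not in the labels.

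Immediate early factors, which respond to growth signals and handling within minutes, set 1 library apart. Egr1 was at 82.2, 77.0, 91.8 and 56.4 CPM at day 0 and at 31.3, 33.0, 39.5 and 305 CPM at day 6, with replicate 4 far above the other 3. Fos was at 4.31, 3.33, 4.16 and 13.3 CPM at day 6, Ier2 at 7.73, 7.66, 8.18 and 23.2 CPM and Cyr61, a matricellular early gene, at 24.9, 25.8, 27.2 and 138 CPM, with the same library highest. Replicate 4 was the highest of the 4 day 6 libraries for 16 of 19 factors. With it 7 factors rose and 7 fell, and without it 7 rose and 8 fell: Jun (log2 -0.35, SE 0.30 with it) was then lower by 0.79 on the log2 scale (SE 0.24, edgeR adjusted p = 0.00742). For Cyr61 the log2 fold change was -1.73 with that library and -2.82 without it. Egr1 was not called in either case, at log2 0.42, SE 0.85 and -1.18, SE 0.73. The 7 that rose by edgeR with all libraries included Atf3 (log2 2.96, SE 0.19), Klf10 (log2 1.68, SE 0.12) and Myc (log2 1.36, SE 0.10). The panel genes above had the same calls without replicate 4.

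Except for some of bone and cartilage, markers of other cell types were low, with many of the defining ones at 0. Their part in the results was not tested. The 15 macrophage markers summed to 7.15 to 9.44 CPM at day 0 and 2.45 to 4.24 CPM at day 6, with Adgre1, C1qa, C1qb, Tyrobp and Aif1 at 0 in all 8 libraries and 5 of 15 tested (Cd14, Cd68, Csf1r, Fcer1g and Lyz2). The 10 endothelial markers summed to 3.64 to 4.37 and 0.870 to 1.37 CPM, with Cldn5, Erg and Tie1 at 0 and 4 of 10 tested (Flt1, Kdr, Tek and Vwf). The 10 lymphocyte markers summed to 1.18 to 2.28 and 0.515 to 0.870 CPM, with Cd4, Cd8a, Ms4a1 and Il7r at 0 and only Gata3 tested. Skeletal muscle markers summed to 9.06 to 11.7 and 15.1 to 18.0 CPM, mostly Des and Acta1, the 2 of 12 tested, with Myod1, Myog, Myf5, Pax7, Myh3 and Ckm at 0. Epithelial and mesothelial markers summed to 1.79 to 2.76 and 6.89 to 10.3 CPM, mostly Krt19, with 3 of 11 tested (Krt18, Krt19 and Lrrn4). Those of Schwann cells and neurons summed to 17.8 to 22.2 and 25.4 to 30.7 CPM, mostly S100b. Bone and cartilage markers were the highest, at 80.3 to 96.9 and 56.9 to 68.2 CPM. They were mainly Col2a1 (from 53.2 ± 7.90 to 0.0612 ± 0.0709 CPM), a cartilage collagen, and Runx2 (from 27.6 ± 3.01 to 8.82 ± 0.871 CPM), the bone factor, at day 0 and Alpl (from 0.400 ± 0.165 to 53.4 ± 4.75 CPM), the phosphatase also made by fat cells, at day 6, with Acan, Ibsp and Dmp1 at 0 and 5 of 12 tested, Sox9 and Col10a1 being the others. Of the adipocyte markers, Adipoq, Plin1, Fabp4, Cidec, Lpl, Cd36, Retn, Cfd, Pparg and Cebpa rose by edgeR, and Lep was too low to test.

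Nuclear RNA varied between libraries of 1 day. The mean log2 CPM of 28 nuclear-retained RNAs and splicing factor transcripts was 6.22 ± 0.334 at day 0 (5.78 to 6.54) and 6.71 ± 0.267 at day 6 (6.41 to 7.0). The difference of 0.50 gave p = 0.0571 in an exact two-sided permutation test over 70 regroupings, where 0.0286 is the smallest p possible. Malat1, a long RNA that stays in the nucleus, was at 248, 169, 81.9 and 192 CPM at day 0 and at 465, 435, 211 and 229 CPM at day 6, so the groups overlapped. With this index in the fit 10284 genes were called between the days, against 10590 without it.

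Cells that had been given IL-13 beforehand went through much the same change. Of the 5088 genes called and at least 2-fold changed in untreated cells, 5051 (99.27%) had the same sign between the days after IL-13, and for 567 (11.1%) the size differed by edgeR's test of the difference between the day effects. Over all tested genes that difference was called for 1061 (8.06%), higher after IL-13 in 410 and lower in 651. That split was not stable. Relative log expression scaling gave 509 higher and 505 lower, total counts 516 and 498, no filter on low counts 522 and 446 and a 1 CPM filter 564 and 490. Leaving out 1 untreated library gave more higher than lower in 5 of 8 fits, for example 521 and 453 without day 6 replicate 4. Nuclear RNA moved with the treatment as well: the index above was 5.29 to 5.52 in the IL-13 libraries of day 0 and 5.44 to 6.09 in those of day 6, in both cases below every untreated library of the same day. With the index in the fit the difference was called for 2123 genes, and for 545 without the 2 untreated libraries of each day with most nuclear RNA (replicates 1 and 4 of day 0, 1 and 2 of day 6). Pparg rose less after IL-13 (log2 1.59, against 2.13 in untreated cells, edgeR adjusted p of the difference = 0.000151) and Cebpa more (log2 4.16 against 3.47, edgeR adjusted p = 4.25e-05). For Fabp4 the values were 7.09 untreated and 7.24 after IL-13, for Scd1 5.29 and 5.33, and for Acta2 -6.98 and -6.87. For Mgll the rise was 9.55 untreated and 6.51 after IL-13, and for C3 10.74 and 7.74. The day effects had opposite signs for Ccl11, the chemokine eotaxin, at log2 3.62 in untreated cells and -4.10 after IL-13 (Mgll, C3 and Ccl11 were picked after their values were seen), and for Serpina3g. The latter, a protease inhibitor, rose from 1.98 ± 0.453 to 8.07 ± 1.52 CPM in untreated cells (log2 2.04, SE 0.15) and changed by log2 -4.55 after IL-13. Each day effect is measured from the day 0 level of its own group. A changed day 0 level after IL-13 and a changed day 6 level cannot be told apart in these differences. Neither was tested.

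**Figure D4:**
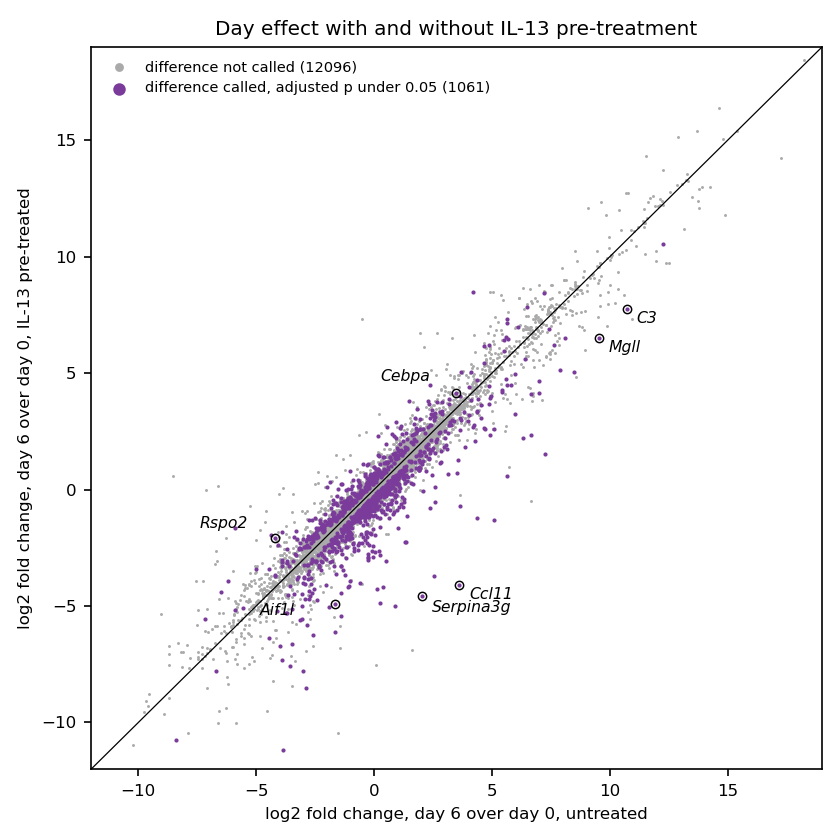
Each point is a tested gene, with the log2 fold change between the days in untreated cells on the horizontal axis and in IL-13 pre-treated cells on the vertical axis, and the line marks equal values. Purple marks the 1061 genes whose day effects differed by edgeR, most of which lie near the line, while Serpina3g and Ccl11 lie far from it.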

How the data were processed

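Per the labels' protocols, RNA was purified on spin columns and sequenced from Illumina's stranded kit for mRNA. The authors deposited whole-number counts per gene and TPM values (scaled to length and library size), per the file headers, in 1 table for each day. The submitters' processing notes name build mm10; of aligner, counter, annotation and strand setting nothing is given in the sources used here. Another 32 per-sample columns were not used. The tables were joined on gene identifier, and TPM served only to compare levels between genes. Counts were tested in edgeR 4.0.16 (R 4.3.3; robust quasi-likelihood, TMM, its expression filter with a minimum count of 10 and total of 15) over all 16 libraries. The standard error was taken as the log2 fold over the root of F. The text names the 15 called genes with the largest folds each way (mean log2 CPM 2 or more, groups apart, a proper name), and also a fixed panel of 36 genes, members of 39 lists chosen by level, fold or small counts, and the genes of the smallest p for the difference. Members and lists were chosen with earlier results of these data known; the early-gene values of 1 library were picked after they were seen. Lists were counted, not tested. Some list members are not reported here. The scripts were tested on simulated counts. Alternatives were other scalings, filters, DESeq2 1.42.0, fewer libraries, a replicate block and a nuclear RNA covariate.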

Additional observations from a re-analysis of the deposited data

Results flagged for a closer look

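Of 138 groups of 4 libraries screened (the panel, the largest folds, and the immediate early factors with Cyr61 and Dusp1, which were added after some of their values had been seen), 15 had a library apart from the other 3. Chance flags about 1 in 20 groups. In 9 of the 15 it was replicate 4 of untreated day 6. There Egr1 was at 304.8 CPM against 31.3 to 39.5 in the others, Cyr61 at 138 against 24.9 to 27.2, Egr2 at 69.9 against 26.1 to 28.1, Klf6 at 75.3 against 40.8 to 46.6 and Dusp1 at 48.7 against 23.2 to 23.9. Nr4a1 was at 28.9 CPM against 10.1 to 12.6, Ier2 at 23.2 against 7.66 to 8.18, Fos at 13.3 against 3.33 to 4.31, and Fabp4 at 16058 against 14221 to 14512.

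The other 6 were spread over libraries. At day 0, replicate 3 was low for Slc2a4 (0.115 CPM against 0.307 to 0.321) and high for Cnn1 (209.8 against 171 to 175). At day 6, replicate 1 was high for Ppargc1a (1.74 against 1.16 to 1.25) and Prdm16 (46.2 against 43.3 to 43.5), replicate 2 for Dlk1 (1.84 against 1.33 to 1.39) and replicate 3 for Slc38a1 (1.39 against 0.475 to 0.579).

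The change between the days differed after IL-13 by edgeR's test of the difference in these named genes, as log2 of the IL-13 effect minus the untreated one. Smaller rises, larger falls or a turn to a fall were seen for Serpina3g (-6.59), Aif1l (-3.26), Enpp3 (-2.96), Daglb (-2.68), Aldh1a7 (-2.48), Plin1 (-1.71), Dlk1 (-1.10), Pnpla2 (-0.85), Lipe (-0.55) and Pparg (-0.53). The opposite held for Rspo2 (2.14), Gas2 (1.45), Mme (1.34), Slc1a3 (1.33), Nrp2 (1.09), Cebpa (0.70) and Lpl (0.40). For Plin1 the untreated day 0 level rests on very few counts, as given above. The edgeR adjusted p ran from 1.62e-15 for Serpina3g to 0.0220 for Lipe. These differences do not tell a changed day 0 level after IL-13 from a changed day 6 level.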

How the results depend on the processing

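The call count between the days in untreated cells (10590) lay between 9683 and 11580 under every alternative, DESeq2 giving 11251, and between 10434 and 10545 with 1 library left out. The count of at least 2-fold changes (5088) stayed between 4670 and 6268, and between 5116 and 5217 with 1 library left out. The difference between the day effects (1061 genes) was less stable: 1608 with a replicate block, 2123 with the nuclear RNA index in the model, 545 without the 2 untreated libraries of each day with most nuclear RNA (day 0 replicates 1 and 4, day 6 replicates 1 and 2), and 837 to 1196 with 1 library left out; the cause was not tested. DESeq2 gave 607 higher and 588 lower. Whether same-numbered libraries of the 2 days belong together is not in the labels. Deviations from group means correlated at 0.157, 0.0468, 0.202 and -0.0827 between same-numbered libraries. Day 0 replicates 1, 2 and 3 correlated best with the day 6 library of their own number, and day 0 replicate 4 with day 6 replicate 1 (0.123). The replicate block moved the day comparison to 10871 calls. The nuclear RNA difference was 0.40 with total counts and 0.35 to 0.61 with 1 library left out. All 593 refits of 35 tested panel genes kept their direction and call. Of list medians, 135 of 702 moved by more than their spread between libraries. Another 1 was counted as reversed, which asks for a change of sign in a median larger than that spread. It was that of epithelial and mesothelial markers, -0.21 against 2.34, where a 1 CPM filter left fewer genes tested. Changes of sign in smaller medians were not counted as reversed. For the immediate early factors the median was 0.42, and without day 6 replicate 4 the middle value was -0.01, that of Fosl2. Setting genes without a count to their bound changed no list median. Depth limits genes under about 1 CPM.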

Other observations

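Several of the largest changes fell outside the lists. Car3, a carbonic anhydrase abundant in fat tissue, had no count at day 0 and 1266, 1209.7, 1181 and 1128 CPM at day 6, at least 28589-fold higher, and Lgals12, a galectin of fat cells, rose from no count to 225 ± 21.4 CPM. Adig, adipogenin, had none at day 0 and 217 ± 14.5 CPM at day 6, and Mmd2, a membrane protein, none and 327 ± 35.8 CPM. Klb, the coreceptor through which Fgf21 acts, had 1 count at day 0 and 11920 at day 6, a ratio of 13216 (95% counting interval 2372 to 522044). Slc36a2, an amino acid transporter also used as a marker of brown fat, had 2 and 17158 counts, a ratio of 9512 (95% counting interval 2633 to 78547). In the other direction, Cemip, which breaks down hyaluronan, went from 87.3 ± 5.38 to 0.0953 ± 0.116 CPM, Cdh3, P-cadherin, from 71.4 ± 2.71 to 0.139 ± 0.0597 CPM, and Il1rl1, the receptor for IL-33, from 64.9 ± 1.55 to 0.187 ± 0.0575 CPM. Col8a1 went from 43.9 ± 1.18 to 0.302 ± 0.190 CPM and Slc38a1, a glutamine transporter, from 84.9 ± 4.79 to 0.741 ± 0.432 CPM.

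Pairs of related enzymes and signalling genes moved apart: Hk1 and Hk2, Akt1 and Akt2, Bcat1 and Bcat2, and Cpt1a and Cpt1b, with the first of each pair lower and the second higher at day 6. These pairs were picked after their values were seen and were not tested as a group. Gm42418, a predicted gene, was among the most abundant rows at day 0, with a median TPM of 17872 and a range from 9392 to 23655 between libraries, against a median of 3109 at day 6. Mir6236 was at a median of 9389 and then 5243 TPM.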
